A study of Rattus norvegicus with 18 samples.

Results

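Messenger RNA of insulin, IGF and FOXO signalling was followed in the kidney of a diabetic nephropathy model. The 9 genes were chosen by identifier from a count table of 55335 identifiers: the insulin receptor Insr, the IGF receptor Igf1r, the ligand Igf1, its carrier Igfbp3, the receptor adaptors Irs1 and Irs2, the kinase subunit Pik3r1, and the transcription factors Foxo1 and Foxo3. All 9 were among the 19233 genes with enough counts to be tested. The study holds 18 kidney libraries of polyadenylated RNA, 6 per group, from animals labelled Rattus norvegicus. Control animals (Ctrl) had ordinary feed and solvent by gavage. Animals of the disease model (DN) had a high-fat diet and an injection of STZ, a compound used to destroy insulin-producing beta cells. Treated animals (Treat) carried the same diet and STZ injection and took oral TSK, which the labels do not spell out, at a daily 500 mg/kg for 4 weeks. Not given in the sources used here were strain, sex and age, and no group received TSK without the diet and STZ.

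Insulin binds the insulin receptor and IGF1 binds the IGF1 receptor, and both receptors phosphorylate the IRS adaptors. These recruit PI3-kinase, whose regulatory subunit is encoded by Pik3r1, and the kinase AKT downstream of it keeps the FOXO factors out of the nucleus. When insulin signalling falls, FOXO factors return to the nucleus and can raise the transcription of Insr and Irs2, so that these genes lie on both sides of the pathway. In the kidney, IGF1 and its binding proteins act on filtration, growth and tubular transport, and much of the circulating IGF1 comes from the liver.

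Rat promoter sequences from RefSeq (build GRCr8, 250 bases before to 50 after the annotated start) were found by symbol for 7 of the 9 genes. Irs2 and Foxo3 had no entry. The 7 windows were searched on both strands for the FOXO core GTAAACA, the insulin response element core CAAAACA and the TATA box core TATAAA. Insr held the FOXO core, which 3.78% of all 33469 promoters of this length hold. Igf1 held the insulin response element core, found in 6.28% of them. None of the 7 held TATAAA, which 14.2% hold, and no match overlapped another. The Insr and Igf1 windows are shown because they hold the matches, in capitals, and Igfbp3 because its transcript differed most between Treat and DN. Each is written 5′ to 3′ on the strand of its gene. The match in Insr starts 100 bases before the annotated start, on the strand opposite to the gene. The match in Igf1 starts 67 bases before it, on the gene's own strand. The windows of the other genes and of Insr and Igfbp3 were richer in G and C (70.3% to 78% of bases) than that of Igf1 (48.3%; median of all promoters 51.7%). A match is a run of letters only, and binding was not measured. The labels give rat while the count identifiers are of mouse, so whether these windows are of the animals' own species was not tested.
Insr, GRCr8 chr12:6128754-6129053, minus strand: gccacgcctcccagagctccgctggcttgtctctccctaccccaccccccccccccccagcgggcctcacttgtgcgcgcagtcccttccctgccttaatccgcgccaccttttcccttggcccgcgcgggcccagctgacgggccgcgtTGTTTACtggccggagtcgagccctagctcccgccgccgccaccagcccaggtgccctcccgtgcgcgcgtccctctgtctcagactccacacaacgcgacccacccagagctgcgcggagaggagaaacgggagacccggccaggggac
Igf1, GRCr8 chr7:24172282-24172581, plus strand: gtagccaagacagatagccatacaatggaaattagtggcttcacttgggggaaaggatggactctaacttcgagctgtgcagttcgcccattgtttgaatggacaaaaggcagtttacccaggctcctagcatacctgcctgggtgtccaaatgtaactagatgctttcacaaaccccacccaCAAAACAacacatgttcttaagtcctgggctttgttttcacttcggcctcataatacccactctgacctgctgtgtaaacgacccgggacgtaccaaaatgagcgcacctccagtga
Igfbp3, GRCr8 chr14:86277895-86278194, minus strand: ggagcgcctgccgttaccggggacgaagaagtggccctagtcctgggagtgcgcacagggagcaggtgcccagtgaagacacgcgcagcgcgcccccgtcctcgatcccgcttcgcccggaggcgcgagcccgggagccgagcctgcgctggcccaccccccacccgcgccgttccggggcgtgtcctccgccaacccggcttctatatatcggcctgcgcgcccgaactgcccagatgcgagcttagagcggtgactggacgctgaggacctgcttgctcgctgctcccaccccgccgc

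Library totals ran from 22040987 to 35275498 counts, and the 9 genes had between 115 and 7281 counts in a library. Levels are in CPM, the gene's counts scaled to a common library total with TMM factors, and a gene was called changed at an adjusted p under 0.05 (edgeR's quasi-likelihood test, Benjamini-Hochberg over all 19233 genes). Since gene lengths do not enter, levels of different genes are not compared. A pair of control libraries stood apart from the rest of their group. Control library 4 had 23 counts of the identifier ENSMUSG00000086503, while the other 5 controls had 38313 to 52784 and all DN and treated libraries 12 to 41. Control library 5 had 5999.8 CPM of ENSMUSG00000029368, an identifier followed here as liver-like. Control library 4 was next with 70.4 CPM. The remaining controls had 16.2 to 22.9 CPM, and the DN and treated libraries 2.08 to 13.0. The first division sets 5 of 6 controls apart from all DN and treated animals, so it and the model cannot be told apart in those 5. The tables used here do not name ENSMUSG00000086503, and whether the division marks sex, strain or another difference between the animals was not tested, which touches each value against the controls. DN and treated libraries lie on the same side of it. Results against the controls are therefore also given for a fit with the division as a covariate, in which control library 4 alone stands for the controls.

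Of the 9 genes, 6 fell in DN against Ctrl, where 15.3% of all genes tested were called lower. Igf1 fell the most, followed by Igfbp3 and Irs1, and Igf1r, Pik3r1 and Foxo1 fell by smaller amounts. Insr, Irs2 and Foxo3 did not pass the test. The DN libraries lay below all controls for 2 of the 9 genes, Igf1 and Irs1, and for 7.89% of all genes. The median log2 difference was -0.31 for the 9 genes and 0.01 for all genes. In bulk tissue, fewer cells of a type and less RNA per cell cannot be told apart. When the division of the controls entered the fit, only Igf1 of the 9 was still called, and 986 genes were called in all, against 6202.

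**Figure D1:**
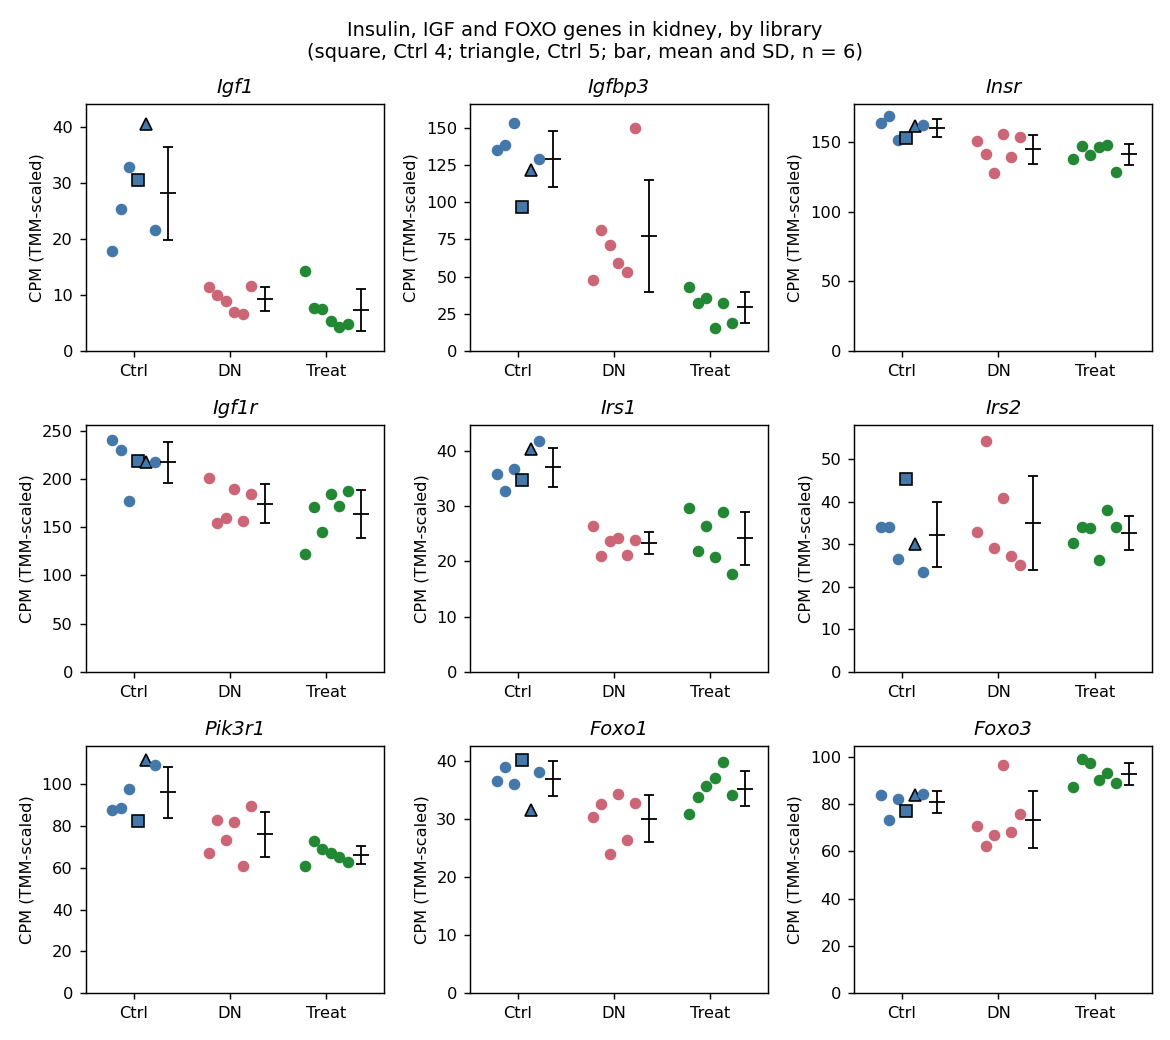
CPM of the 9 genes in each library (y axis, TMM-scaled, from 0) by group (x axis, 6 libraries each, in order of replicate number). The square is control library 4, the triangle control library 5, and the bar the mean with SD. All DN libraries are below all controls for Igf1 and Irs1, and all treated libraries are below all DN libraries for Igfbp3.

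Igf1 (ENSMUSG00000020053), the ligand of the IGF1 receptor, stood at 17.8 CPM in the lowest control, 27.9 at the median and 40.5 in the highest. In DN the lowest, median and highest libraries had 6.53, 9.45 and 11.6 CPM, and in Treat 4.32, 6.48 and 14.3 CPM. Every DN and treated library was below every control. Controls averaged 28.1 ± 8.23, DN animals 9.24 ± 2.17 and treated animals 7.33 ± 3.69 CPM (SD, n = 6 each). The fall in DN was 67.1% (log2 -1.60, SE 0.26, adjusted p = 0.000192, edgeR). Control library 5, which held the excess of the liver-like identifier ENSMUSG00000029368, was also the control with the most Igf1. Whether that excess and its Igf1 level are linked was not tested. Without it the log2 fold change of Igf1 was -1.47 (adjusted p = 0.000604), and without control libraries 4 and 5 it was -1.40 (adjusted p = 0.00160). Control library 4 had 30.5 CPM, inside the range of the other controls and above all 6 DN libraries. With the division as a covariate Igf1 remained called (log2 fold change -1.72, SE 0.44, adjusted p = 0.0276).

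Igfbp3 (ENSMUSG00000020427) encodes a binding protein that carries IGFs outside cells and limits their access to the receptor. Controls ran from 97.0 to 153 CPM (median 132), DN libraries from 48.1 to 150.2 (median 65.5) and treated libraries from 15.5 to 42.8 (median 32.3). In DN, library 6 stood at the level of the controls with 150.2 CPM, and the other 5 lay at 48.1 to 81.6, below every control. The mean was 129 ± 18.9 CPM in Ctrl and 77.4 ± 37.7 in DN (SD, n = 6 each), a fall of 40.0% (log2 -0.74, SE 0.26, adjusted p = 0.0382, edgeR). Without DN library 6 the fall was steeper (log2 fold change -1.04, adjusted p = 0.00159). The call in DN was lost without any one of control libraries 1, 2, 3, 5 or 6 or of DN libraries 1 to 5 (adjusted p 0.0521 to 0.0884). Control library 4 had the lowest Igfbp3 of the controls, outside the range of the others, and with the division as a covariate the log2 fold change was -0.33 (SE 0.47, adjusted p = 0.734). The call of Igfbp3 between DN and Ctrl thus depended on the libraries fitted, while its sign was negative in all 28 alternatives run.

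Of the receptors, Igf1r (ENSMUSG00000005533) fell in DN, and Insr (ENSMUSG00000005534) did not pass the test. Igf1r ran from 177 to 240.4 CPM in Ctrl (median 218), from 155 to 201 in DN (median 172) and from 122 to 187 in Treat (median 171). Of the DN libraries, 3 lay below every control, and the other 3 overlapped them only through control library 3, the lowest. The fall was 19.6% (log2 fold change -0.31, SE 0.11, adjusted p = 0.0297, edgeR). This call was lost without control library 1 or 2 or DN library 2, 3 or 5 (adjusted p 0.0614 to 0.0686), without control libraries 4 and 5 (adjusted p = 0.0741), and with no filter on low counts (adjusted p = 0.0567). With the division as a covariate the log2 fold change was -0.33, with a wider SE of 0.20 (adjusted p = 0.352).

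Insr ran from 152 to 169 CPM in Ctrl (median 162), from 128 to 156 in DN (median 146) and from 129 to 148 in Treat (median 143). Its DN difference was -0.15 (log2, SE 0.06, adjusted p = 0.0789, edgeR), with 4 of 6 DN libraries below every control. DESeq2 called it (adjusted p = 0.0237). The difference of Insr was -0.08 with the division as a covariate (SE 0.12, adjusted p = 0.741).

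Of the adaptors, Irs1 (ENSMUSG00000055980) fell in DN, and Irs2 (ENSMUSG00000038894) was called in no comparison. The difference between the genes was not tested. Both are docking proteins that link the receptors to PI3-kinase. Irs1 ran from 32.7 to 41.8 CPM in Ctrl (median 36.3), from 20.9 to 26.4 in DN (median 23.7) and from 17.7 to 29.7 in Treat (median 24.1). All DN and treated libraries lay below all controls. The fall in DN was 36.9% (log2 -0.66, SE 0.11, adjusted p = 0.000226, edgeR). Control library 4, at 34.7 CPM, was inside the range of the other controls and above every DN library. With the division as a covariate the log2 fold change of Irs1 was -0.57 (SE 0.20, adjusted p = 0.108).

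Irs2 ran from 23.5 to 45.3 CPM in Ctrl, from 25.0 to 54.4 in DN and from 26.3 to 38.0 in Treat, and the groups overlapped throughout. The highest control was library 4 and the highest DN library was library 2. Its difference between DN and Ctrl was 0.11 (log2, 95% interval -0.26 to 0.48, adjusted p = 0.652, edgeR), and it was -0.06 without DN library 2 and -0.38 with the division as a covariate.

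Pik3r1 (ENSMUSG00000041417), which encodes the p85 alpha regulatory subunit of PI3-kinase, ran from 82.3 to 112 CPM in Ctrl (median 93.3), from 60.7 to 89.7 in DN (median 77.7) and from 60.7 to 72.8 in Treat (median 66.2). Its DN libraries overlapped the lower controls, and all treated libraries lay below all controls. The fall in DN was 21.0% (log2 -0.34, SE 0.10, adjusted p = 0.0125, edgeR). Control library 4 was the lowest control, and with the division as a covariate the log2 fold change was -0.11 (SE 0.17, adjusted p = 0.749).

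Foxo1 (ENSMUSG00000044167) and Foxo3 (ENSMUSG00000048756) encode the transcription factors that insulin signalling holds in the cytoplasm. Foxo1 ran from 31.6 to 40.2 CPM in Ctrl (median 37.3), from 24.0 to 34.2 in DN (median 31.4) and from 30.8 to 39.7 in Treat (median 34.9). It fell by 18.5% in DN (log2 -0.30, SE 0.09, adjusted p = 0.0171, edgeR). Control library 5 was the lowest control and the only one within the DN range, and control library 4 was the highest. With the division as a covariate the log2 fold change of Foxo1 was -0.42 (SE 0.16, adjusted p = 0.138), larger than without it but no longer called.

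Foxo3 ran from 73.1 to 84.2 CPM in Ctrl (median 83.1), from 62.3 to 96.5 in DN (median 69.5) and from 87.4 to 98.9 in Treat (median 91.8). DN library 4, at 96.5 CPM, was above every control, while 4 of the other DN libraries were below every control. The log2 difference between DN and Ctrl was -0.14 (95% interval -0.32 to 0.04, adjusted p = 0.237, edgeR). Without DN library 4 it was -0.23 and passed the test (adjusted p = 0.0133), and without DN library 2 it was -0.09 (adjusted p = 0.427). The difference was -0.07 with the division as a covariate (SE 0.16, adjusted p = 0.841).

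**Figure D2:**
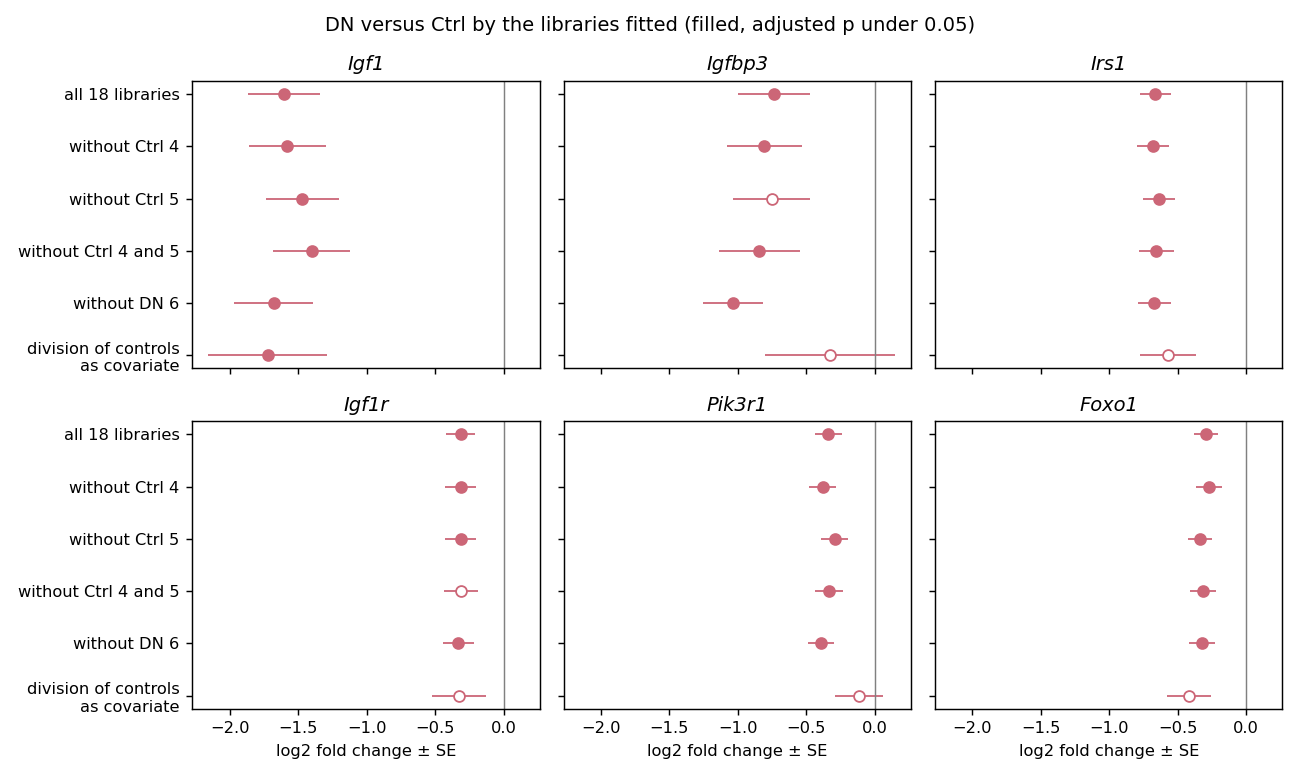
Log2 fold change of DN against Ctrl (x axis, with SE) for the 6 genes called in that comparison, by the libraries fitted (y axis). Filled points have an adjusted p under 0.05. Igf1 was called in each of the 6 fits shown, from -1.72 to -1.40, and with the division of the controls as a covariate the other 5 genes were not called.

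The comparison of Treat with DN asks how these transcripts stood in model animals given TSK. Of the 9 genes, 1 fell and 8 did not pass the test, where 0.858% of all genes were called lower and 0.536% higher. The gene that fell was Igfbp3. All 6 treated libraries were below all 6 DN libraries, which was so for 1.03% of all genes. The mean went from 77.4 ± 37.7 CPM in DN to 29.5 ± 10.4 in Treat (SD, n = 6 each), a fall of 61.9% (log2 fold change -1.39, SE 0.27, adjusted p = 0.0147, edgeR). Without DN library 6, the high one, Igfbp3 stood at 62.8 ± 13.7 CPM in DN (n = 5), and the log2 fold change was -1.09 (adjusted p = 0.0243). The call held without each of the 18 libraries in turn and was lost when only the 12 libraries compared were fitted (log2 fold change -1.38, adjusted p = 0.0561).

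Igfbp3 in Treat thus lay further from the control level than in DN. Against the controls it was 77.2% lower (log2 fold change -2.13, SE 0.27, adjusted p = 9.91e-06, edgeR). With the division as a covariate that difference was -1.72 (SE 0.43, adjusted p = 0.0191).

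Foxo3 and Foxo1 had positive differences between Treat and DN that did not pass the test. For Foxo3 the log2 difference was 0.34 (95% interval 0.15 to 0.52, adjusted p = 0.0591, edgeR). Of its treated libraries 2 were above every DN library, and the other 4 overlapped DN only through DN library 4. Without that library the log2 fold change of Foxo3 was 0.43 and passed the test (adjusted p = 0.00694). Without treated library 1 it was 0.35 (adjusted p = 0.0476), and DESeq2 also called it (log2 fold change 0.34, adjusted p = 0.00794). For Foxo1 the log2 difference was 0.23 (95% interval 0.04 to 0.42, adjusted p = 0.21, edgeR), with 3 of 6 treated libraries above every DN library. Library totals in place of scaled totals shifted the median of all genes by 0.13 (log2) toward Treat. On that scale Foxo3 (0.47, adjusted p = 0.012) and Foxo1 (0.36, adjusted p = 0.0434) were called, and both lay above the shifted median.

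The other 6 genes showed no call between Treat and DN. Igf1 had a log2 difference of -0.33 (95% interval -0.89 to 0.22, adjusted p = 0.569, edgeR), with 3 treated libraries below every DN library and treated library 1 above them all. Without treated library 1 the difference of Igf1 was -0.64 (adjusted p = 0.149), without treated library 5 it was -0.22 (adjusted p = 0.747), and with library totals it was -0.19 (adjusted p = 0.745). The intervals for Irs1 (-0.18 to 0.29), Insr (-0.16 to 0.10), Igf1r (-0.32 to 0.13), Irs2 (-0.46 to 0.28) and Pik3r1 (-0.40 to 0.01) also include 0. For Irs1, the transcript with the smallest adjusted p after Igf1 in DN against Ctrl, treated animals stood at 24.2 ± 4.80 CPM and DN animals at 23.4 ± 2.05 (SD, n = 6 each). Its interval leaves out a log2 difference of 0.66, which would reach the control mean of 37.0 CPM. That mean is taken as fixed here, and 5 of the 6 controls behind it lie on the other side of the division.

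**Figure D3:**
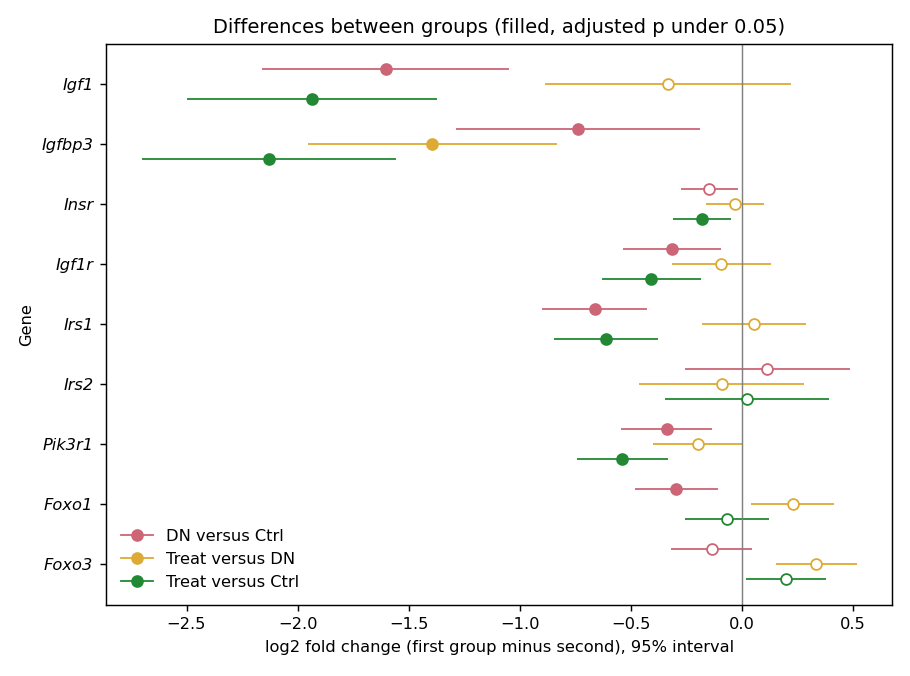
Log2 fold change of each gene with its 95% interval (x axis, first group minus second) in the 3 comparisons (colors). Filled points have an adjusted p under 0.05. Igfbp3 is the gene called in all 3 comparisons, and Irs2 and Foxo3 were called in none.

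Treat was also set against Ctrl, to see what still differed in treated animals. That comparison uses the same controls as the comparison of DN with Ctrl, so the values of both are given only side by side. Of the 9 genes, 6 fell and 3 did not pass the test, where 21.9% of all genes were called lower and 23.0% higher. Igf1 was 73.9% lower (log2 fold change -1.94, against -1.60 in DN), Irs1 34.6% lower (-0.61, against -0.66) and Pik3r1 31.1% lower (-0.54, against -0.34). Igf1r was 24.7% lower (-0.41, against -0.31) and Insr 11.7% lower (-0.18, against -0.15). The adjusted p-values of these 5 genes by edgeR were 2.26e-05, 0.000298, 0.000279, 0.00455 and 0.0248, in the same order. The treated libraries lay below all controls for 5 genes, namely Igf1, Igfbp3, Irs1, Pik3r1 and Insr, which was so for 13.2% of all genes tested. The call for Insr was lost without control library 2 (adjusted p = 0.0541), without treated library 6 (adjusted p = 0.0587) and with library totals (log2 fold change -0.08, adjusted p = 0.354).

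Foxo3 was the only one of the 9 genes whose treated libraries all lay above all controls, which was so for 11.5% of all genes. Its mean was 92.7 ± 4.65 CPM in Treat and 80.8 ± 4.60 in Ctrl (SD, n = 6 each). The log2 difference was 0.20 (SE 0.09, adjusted p = 0.0691, edgeR), and it was called without DN library 4 (adjusted p = 0.0158) and when only the 12 libraries compared were fitted (0.22, adjusted p = 0.00529). Foxo3 was also called with library totals (0.30, adjusted p = 0.0105) and by limma voom with library weights (0.21, adjusted p = 0.0396). Its difference was 0.26 with the division as a covariate (SE 0.17, adjusted p = 0.324). Foxo1 did not pass the test (log2 difference -0.07, 95% interval -0.25 to 0.12, adjusted p = 0.566). Irs2 gave 0.02 (95% interval -0.35 to 0.39, adjusted p = 0.931). With the division as a covariate, Igf1 (log2 fold change -2.05, adjusted p = 0.00669) and Igfbp3 were the 2 genes still called. Insr (-0.11, adjusted p = 0.562), Igf1r (-0.42, adjusted p = 0.176), Irs1 (-0.52, adjusted p = 0.112) and Pik3r1 (-0.31, adjusted p = 0.25) were not called, nor were Foxo1 (-0.19, adjusted p = 0.479) and Irs2 (-0.47, adjusted p = 0.313).

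Ratios of counts within a library need no scaling factor and were taken for 4 pairs chosen after the values had been seen. They describe shifts between groups only, since gene lengths differ, and were not tested. The ratio of Irs1 to Irs2 ran from 0.766 to 1.78 in Ctrl (median 1.20), from 0.385 to 0.951 in DN (median 0.789) and from 0.521 to 0.976 in Treat (median 0.770). The lowest control was library 4, and the other 5 controls were above every DN library and overlapped Treat only through treated library 1. The ratio of Igf1 to Igfbp3 had medians of 0.198 in Ctrl, 0.122 in DN and 0.247 in Treat. In DN it lay between 0.0771 and 0.239, with library 1 the highest, and the treated libraries (0.134 to 0.349) covered nearly the same range as the controls (0.132 to 0.334). The upper part of the control range came from control libraries 4 (0.314) and 5 (0.334), which stood apart from their group. The other controls lay between 0.132 and 0.215, below the treated median. Igf1 and Igfbp3 were thus both low in Treat, and whether their proportion was that of the controls depends on control libraries 4 and 5. The ratio of Insr to Igf1r had medians of 0.739, 0.827 and 0.863 in Ctrl, DN and Treat, and that of Foxo1 to Foxo3 had medians of 0.444, 0.408 and 0.375. The ranges of the groups overlapped for both.

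**Figure D4:**
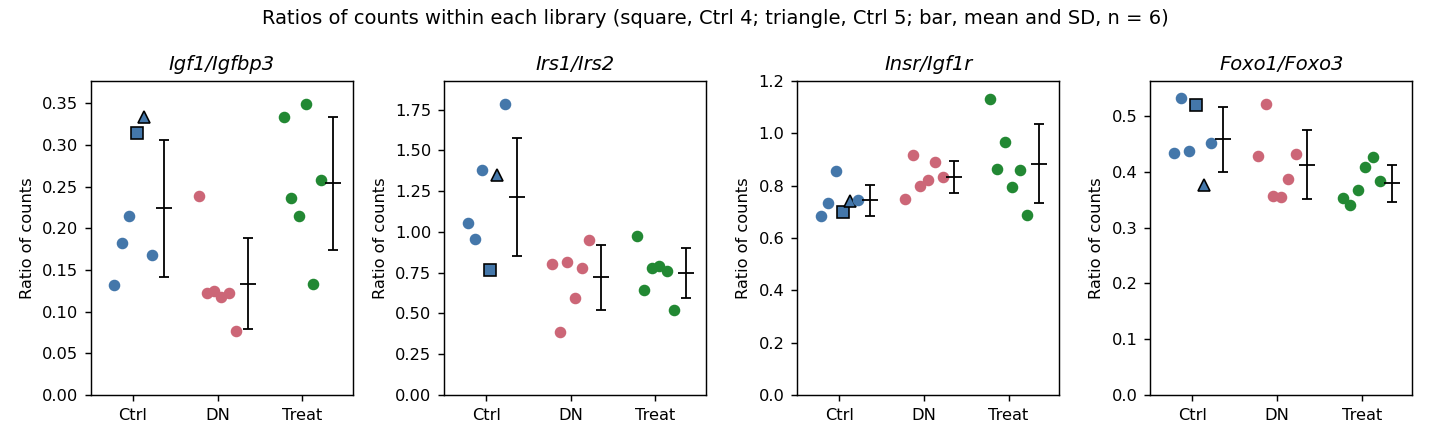
Ratio of the counts of 2 genes within each library (y axis, from 0) by group (x axis, 6 libraries each), with the mean and SD as bars; the square is control library 4 and the triangle control library 5. The ratio of Irs1 to Irs2 has a lower median in DN (0.789) and Treat (0.770) than in Ctrl (1.20), and that of Igf1 to Igfbp3 is lowest in DN.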

How the data were processed

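Polyadenylated RNA of kidney was measured in 18 libraries. Per the labels' protocols, a Qiagen column kit gave the RNA and a SMARTER mRNA kit the libraries. The authors deposited raw counts per gene, 1 column per library, which were used as deposited. Not given in the sources used here were aligner, counter, annotation release and strand use, so reads of antisense transcripts cannot be told apart. The submitters' processing notes name the builds GRCm38 and mm10, and all 55335 identifiers start with ENSMUSG, which are mouse references, while the labels give rat. If the animals were rats, reads could be lost unevenly between genes. Columns were assigned by the library names in the labels, groups and replicate numbers by the titles. The symbols of the 9 genes came with their identifiers. The rat gene table matched 0 of the identifiers, so 13 lists of pathway genes, FOXO targets and cell markers (150 symbols) could not be tested, the tissue was not checked against its markers, and no further gene is named.

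The members, lists and tests were chosen with earlier results of these data known. Every one of the 9 genes is described, by rule. The test used edgeR 4.0.16 in R 4.3.3: filterByExpr, TMM factors, 1 coefficient per group over all 18 libraries, glmQLFit and glmQLFTest, Benjamini-Hochberg adjustment over 19233 genes, calls under 0.05. Standard errors and 95% intervals derive from the F statistics. The script was tested on simulated data. The division of the controls was read from ENSMUSG00000086503 (at least 1000 counts). The animal is taken as the replicate, and no 2 libraries of 1 group agreed within sampling noise (chi-square divided by its degrees of freedom at least 12.9). That check looks for 1 library entered again, and it cannot show that libraries came from different animals. Alternatives were DESeq2 1.42.0, RLE factors, library totals, no filter, CPM above 1 in at least 6 libraries, a block on the replicate number, only the 12 libraries compared, limma 3.58.1 (voom with library weights), each library left out, control libraries 4 and 5 left out, and the division as a covariate.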

Additional observations from a re-analysis of the deposited data

Results flagged for a closer look

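For 3 of the 27 combinations of gene and group, 1 library lay far from the other 5. Chance does this in about 5% of groups. Igfbp3 stood at 150.2 CPM in DN library 6, and the next DN library had 81.6. Without it the log2 fold change of Igfbp3 was -1.04 for DN against Ctrl and -1.09 for Treat against DN, and both were called by edgeR (adjusted p = 0.00159 and 0.0243). Igf1 stood at 14.3 CPM in treated library 1, and the next treated library had 7.62. Without it the difference of Igf1 between Treat and DN was -0.64 and not called (adjusted p = 0.149, edgeR). Igf1r stood at 177 CPM in control library 3, and the next control had 218. Without it the log2 fold change of Igf1r between DN and Ctrl was -0.37 (adjusted p = 0.0158, edgeR), against -0.31 with it.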

How the results depend on the processing

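The 9 genes in 3 comparisons were refitted under 28 alternatives. Of 756 values, 699 kept direction and side of the threshold, 31 lost a call, 13 gained one and 13 changed sign, all 13 for genes not called in either fit. Igf1 against Ctrl, in DN and in Treat, and Igfbp3 in Treat against Ctrl kept their calls in all 28. With the division of the controls as a covariate, the genes called fell to 1 of 9 and 986 of all genes in DN against Ctrl, and to 2 of 9 and 1862 of all genes in Treat against Ctrl. A single control is then the reference and the standard errors are wider. Irs2 changed sign in that fit (-0.38 in DN and -0.47 in Treat against Ctrl). With single libraries left out, Irs2 ranged from -0.056 (without DN 2) to 0.24 for DN against Ctrl, from -0.17 to 0.077 (without DN 2) for Treat against DN, and from -0.056 (without control 6; also negative without control 3 or treated 5) to 0.14 for Treat against Ctrl. Irs1 ranged from -0.014 (without treated 1; also negative without treated 5) to 0.13 for Treat against DN. With library totals, Insr (0.096), Igf1r (0.029) and Irs2 (0.039) for Treat against DN and Foxo1 (0.033) for Treat against Ctrl changed sign. On that scale the median log2 difference of all genes was 0.127 for Treat against DN and 0.125 for Treat against Ctrl. With TMM factors these medians were -0.005 and 0.023. The cause of the sign changes was not tested.

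Between Treat and DN, the genes called among the 9 and among all genes were 1 and 268 as reported. They were 2 and 799 with DESeq2, 2 and 737 with limma voom, 3 and 775 with library totals, 2 and 286 with CPM above 1 in at least 6 libraries, 0 and 116 with only the 12 libraries compared (at an unadjusted p under 0.05, 3 of the 9), 1 and 119 with no filter, and 1 and 117 with the replicate block. With library totals 84.4% of all these calls were higher, against 38.4%, and in Treat against Ctrl 64.5% against 51.2%. Without single libraries the counts between Treat and DN ranged from 1 to 2 of the 9 and from 97 (without DN library 4) to 446 (without treated library 1) of all genes. Leaving out control 6 gave 164 genes, DN 1 gave 152, DN 2 gave 119, DN 6 gave 125, treated 3 gave 119 and treated 6 gave 160. For DN against Ctrl they ranged from 4 to 6 and from 5103 to 6936, and for Treat against Ctrl from 5 to 7 and from 7909 to 8929.

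Numbers shared between groups did not pair the libraries: deviations from group means correlated by -0.02 on average over 18 pairs with the same number (-0.19 to 0.19). The replicate block changed no call of the 9 genes. Counts of the 9 genes were at least 115 per library. Each library is taken as a different animal, so spread between animals and spread from library preparation cannot be told apart.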
